A study of Homo sapiens with 4 samples.

Results

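Expression of 8 genes that encode secreted glycoproteins of the extracellular matrix was followed in MCF10A cells, an established non-tumour line of human mammary epithelium. The genes were FN1, POSTN, SPARC, FBN1, TNC, THBS1, FSTL1 and EFEMP1. They were taken by symbol from the deposited tables, where all 8 were found among 25317 gene symbols. RNA sequencing covered 4 libraries, 1 per group. Cells received a lentivirus with a ZsGreen marker that carried no factor (the empty vector, EV), Zeb1, Snail or Ovol2. The culture medium of all groups held horse serum, epidermal growth factor, cholera toxin and insulin. On day 6 the fluorescent cells were sorted and their total RNA was sequenced, so every group, the empty vector control included, was infected and sorted. Zeb1 and Snail repress epithelial genes and set off the epithelial-to-mesenchymal transition (EMT), in which cells lose cell contacts and gain motility, and Ovol2 drives the reverse transition. The factors were overexpressed from a virus in bulk populations, which limits each group as a model. With 1 library per group no spread could be measured, so no test was run, and every difference below describes these libraries.

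The matrix around a cell is a network in which fibrous glycoproteins link collagens and elastic fibres to receptors on the cell surface. Fibronectin, the product of FN1, is assembled into fibrils through integrins and gives other matrix proteins a place to bind. Periostin (POSTN), tenascin-C (TNC), thrombospondin-1 (THBS1) and SPARC are matricellular proteins, which modulate contact between cells and matrix and are made in wounds, in tumour stroma and during development. Fibrillin-1 (FBN1) builds the microfibrils that carry elastin and hold latent TGF-beta. EFEMP1 encodes fibulin-3, a protein of basement membranes and elastic tissue, and FSTL1 encodes a secreted glycoprotein related to SPARC. FN1 is a widely used marker of the mesenchymal state, and basal mammary cells themselves make several of these proteins.

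The promoters of these genes differ in base composition, and 4 of them are shown because they set FN1 and POSTN, among the genes that differed most with Zeb1 and Snail, beside TNC and THBS1, which differed less. RefSeq's promoter table (build GRCh38.p14) held 7 of the 8 genes, with no entry used for EFEMP1. The 250 bases before the annotated start are given 5′ to 3′ on the strand of the gene. FN1 lies on the minus strand with its window at chr2:215436069-215436318, POSTN on the minus strand at chr13:37598769-37599018, TNC on the minus strand at chr9:115118158-115118407 and THBS1 on the plus strand at chr15:39580829-39581078. Capitals mark matches, on either strand, to TGACGT (the core of the cAMP response element), TGANTCA (bound by AP-1), GGAATG (bound by TEAD factors) and TATAA or TATAAA (the TATA box).
FN1: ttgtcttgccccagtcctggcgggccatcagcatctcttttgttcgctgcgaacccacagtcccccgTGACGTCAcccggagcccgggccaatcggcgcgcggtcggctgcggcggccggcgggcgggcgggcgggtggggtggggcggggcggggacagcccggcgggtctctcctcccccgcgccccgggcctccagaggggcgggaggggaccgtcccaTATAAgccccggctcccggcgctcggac
POSTN: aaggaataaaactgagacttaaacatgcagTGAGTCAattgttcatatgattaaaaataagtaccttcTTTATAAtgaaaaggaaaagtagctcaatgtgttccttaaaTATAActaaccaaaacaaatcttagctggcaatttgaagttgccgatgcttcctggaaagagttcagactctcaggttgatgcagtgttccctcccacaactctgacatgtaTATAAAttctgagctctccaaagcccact
TNC: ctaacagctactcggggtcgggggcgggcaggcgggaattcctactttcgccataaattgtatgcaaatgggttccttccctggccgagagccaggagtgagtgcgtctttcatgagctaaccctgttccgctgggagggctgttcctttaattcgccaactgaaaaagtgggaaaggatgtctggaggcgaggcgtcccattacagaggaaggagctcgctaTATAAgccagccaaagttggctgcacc
THBS1: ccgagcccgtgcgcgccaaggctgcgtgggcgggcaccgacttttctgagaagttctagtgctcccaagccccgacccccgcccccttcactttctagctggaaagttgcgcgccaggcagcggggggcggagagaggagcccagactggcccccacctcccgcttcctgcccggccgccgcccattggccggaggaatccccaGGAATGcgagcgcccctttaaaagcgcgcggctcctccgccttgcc

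FN1 and POSTN, each the nearest gene to the other by its ratios to EV in these libraries, have unlike promoters. G and C made up 76.4% of the 250 bases of FN1 and 36.4% of those of POSTN, which put them at percentiles 90.0 and 4.01 of 16997 promoters of the same length. The FN1 window held 32 CG dinucleotides and the POSTN window 1. Each has TATAA ahead of its start, with its first base at -28 in FN1 and -29 in POSTN (the base before the start is -1), and TNC has it at -27. TATAA was searched after the sequences had been seen. It occurred in 3 of these 7 windows and in 16.2% of all promoters searched. FN1 also holds TGACGT on both strands, overlapping from -183 to -176, and this motif occurred in 1 of the 7 windows and 8.60% of all. GGAATG stood in SPARC, FBN1 and THBS1, 3 of 7 windows against 10.4% of all, and TGANTCA in POSTN, 1 of 7 against 5.40%.

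Letters that the delivered factors are known to bind were searched in the same windows. CACCTG, the form of the E-box preferred by ZEB and SNAIL family factors, matched in 0 of 7 windows and in 17.1% of all promoters. The looser E-box CANNTG, which includes CACCTG, matched in 4 of 7 (POSTN, SPARC, FBN1 and TNC) and in 58.5% of all. CCGTTA, an OVOL motif, matched in 0 of 7 and in 2.77%, and TATAAA, which contains TATAA, in 1 of 7 (POSTN) and 9.18%. A match or its absence describes only these letters in this window. The map of matches shows the 3 TATA matches next to the start at almost the same distance and an FSTL1 window with no match to any drawn motif.

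**Figure D1:**
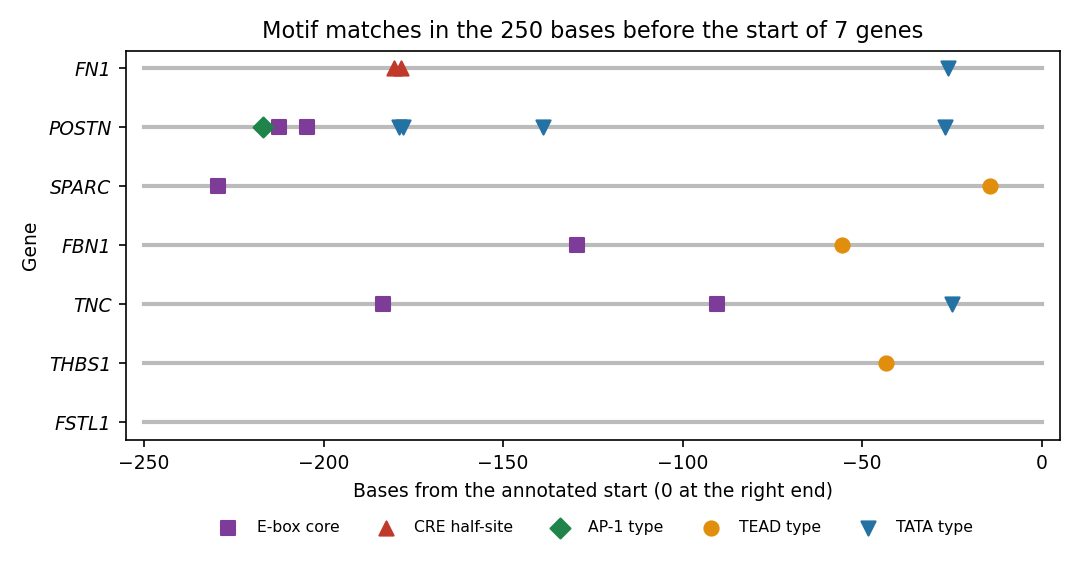
Matches to 5 motifs, on either strand, in the 250 bases before the start of 7 genes, drawn by distance from the annotated start (horizontal axis, bases). Each symbol is 1 match. The TATA type matches of FN1, POSTN and TNC nearest the start begin at -28, -29 and -27.

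Depth, estimated from the smallest steps between low values, was 24100000 to 34300000 fragments per library. Each delivered factor stood highest in its own library, with ZEB1 at 17.3 FPKM against 0.260 in the empty vector library, SNAI1 (Snail) at 99.7 against 0.152 and OVOL2 at 78.3 against 6.32. FPKM scales the fragments of a gene by its transcript length and by library depth, so levels can be compared between genes. Of 10 epithelial markers, 10, 10, 9 and 10 reached 1 FPKM (libraries in the order EV, Zeb1, Snail, Ovol2, here and in what follows), with summed levels of 9557, 2670, 7822 and 5194 FPKM. KRT17 alone gave 5736 of the 9557 FPKM with EV and 4624 of the 5194 with Ovol2, while KRT5 was at 2929 and 215 FPKM there. Of 9 fibroblast markers, 2, 4, 3 and 1 reached 1 FPKM. Their summed level moved with that of the 8 genes, at 15.5, 702, 136 and 7.90 FPKM. Decorin (DCN) alone gave 604 of these 702 FPKM in the Zeb1 library, and PDGFRA, PDGFRB, THY1 and PDPN were below 1 FPKM in every library. Of 6 smooth muscle and pericyte markers, 2, 2, 2 and 1 reached 1 FPKM, with sums of 12.6, 39.1, 26.7 and 3.29 FPKM, and MYH11, CNN1 and DES were below 1 FPKM in all 4. Of 7 immune markers, 2, 2, 1 and 2 reached 1 FPKM (CD14 and CD68), summing to 3.22, 21.9, 3.15 and 7.79 FPKM, with CD3E at 0 in every library and PTPRC at 0 in the empty vector library and at most 0.0177 elsewhere. Of 6 endothelial markers 0 reached 1 FPKM in any library, with sums from 0.133 to 0.325 FPKM. The part of fibroblast or other cells in the results was not tested, and in bulk RNA fewer cells of a type and less RNA per cell cannot be told apart.

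Together the 8 genes summed to 341 FPKM with EV, 5113 with Zeb1, 1161 with Snail and 32.6 with Ovol2. That was 0.0910%, 1.76%, 0.325% and 0.00586% of all FPKM in these libraries. FN1 made up most of the total in the Zeb1 library, and without it the sums were 248, 1131, 585 and 26.0 FPKM. The order of the libraries was therefore the same with and without FN1.

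Fibronectin had the highest level of the 8 genes in the Zeb1 and Snail libraries. FN1 stood at 92.7 FPKM with EV, 3982 with Zeb1, 576 with Snail and 6.60 with Ovol2. The highest level was 603 times the lowest, and no other library came near that of Zeb1. Ranked by level among all genes of a library, FN1 was number 418 with EV, 3 with Zeb1, 71 with Snail and 4521 with Ovol2. It thus made 1.37% of all FPKM in the Zeb1 library, against 0.0248% in the control. The tables give 1 value per gene, so the splice forms of fibronectin were not resolved.

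Periostin, which binds fibronectin and collagens, followed the same order at lower levels. POSTN stood at 14.9 FPKM with EV, 510 with Zeb1, 154 with Snail and 1.39 with Ovol2. Its 4 values spanned 367-fold. Fibrillin-1 had the widest span, 796-fold, from a low start. FBN1 stood at 0.377 FPKM with EV, 50.3 with Zeb1, 8.67 with Snail and 0.0632 with Ovol2. It was thus close to silent in the control and the Ovol2 library, and its level with Snail lay between those of the control and of Zeb1.

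SPARC, a collagen-binding matricellular protein, was present in the Zeb1 library and close to the detection limit elsewhere. Its level was 0.0202 FPKM with EV, 3.55 with Zeb1, 0.0411 with Snail and 0.0231 with Ovol2. At the estimated depth and with its longest GENCODE transcript, these values correspond to about 2.2, 451, 4.8 and 2.1 fragments. The order of the 3 low libraries therefore rests on a handful of fragments and is not read here, and plain ratios of this gene are not printed. Its relative FSTL1 behaved otherwise, with 36.5 FPKM with EV, 226 with Zeb1, 146 with Snail and 1.71 with Ovol2. The Zeb1 and Snail values of FSTL1 both lay far above the control, and the Ovol2 value far below it.

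Thrombospondin-1, tenascin-C and fibulin-3 were well expressed in the control and spanned a narrower range. THBS1, which binds integrins and activates latent TGF-beta, stood at 63.5 FPKM with EV, 158 with Zeb1, 75.2 with Snail and 5.35 with Ovol2. TNC, which weakens adhesion to fibronectin, stood at 10.7, 23.1, 8.48 and 0.952 FPKM in the same order. EFEMP1 was the most abundant of the 8 genes in the control, at 122 FPKM, and stood at 160 with Zeb1, 193 with Snail and 16.5 with Ovol2. Snail was thus close to the control for THBS1 and slightly below it for TNC. The Zeb1 and Snail values of EFEMP1 lay near each other, and their order changed with the scaling. The spans were 29.5-fold, 24.3-fold and 11.7-fold. In 7 of the 8 genes the Ovol2 library held the lowest level, SPARC being the exception.

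**Figure D2:**
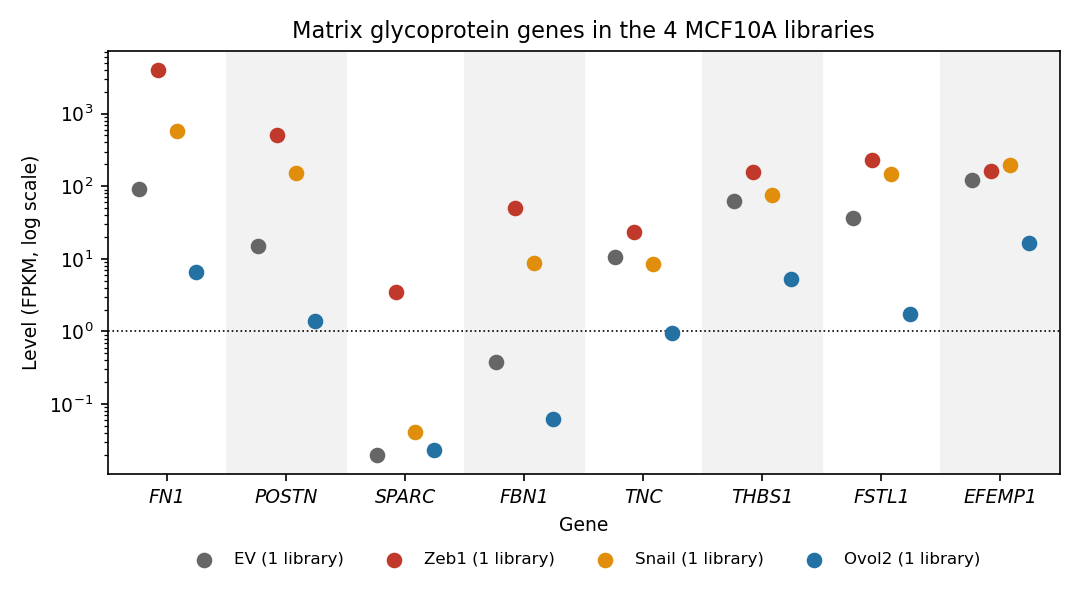
Level of each of the 8 genes in the 4 libraries (vertical axis, FPKM on a log scale), 1 point per library with no replicates. The dotted line marks 1 FPKM. FN1 runs from 6.60 to 3982 FPKM, and SPARC lies above 1 FPKM only in the Zeb1 library.

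Zeb1 against the empty vector addressed which matrix genes an EMT factor turns up in epithelial cells. Differences were measured as the log2 of the ratio of FPKM + 1 and called at 2-fold or more on that scale, among genes that reached 1 FPKM in the one library or the other. All 8 genes had a higher FPKM in the Zeb1 library and passed this filter, but SPARC and FBN1 passed only through the Zeb1 library and could not have been called lower. By this rule 7 of the 8 were higher and 0 lower, while 4.52% of the 11922 kept genes were called higher and 8.49% lower. The 8 genes and the related lists were chosen with earlier results of these data known. Shares of all kept genes, here and below, therefore give a scale for the counts and are no test. The median log2 ratio was 2.38 over the 8 genes and -0.09 over all kept genes. FN1 had a log2 ratio of 5.41 (43.0-fold in plain FPKM), FBN1 of 5.22 (134-fold) and POSTN of 5.01 (34.2-fold). They ranked 3, 6 and 8 from the top of all kept genes. FSTL1 followed at 2.60 (6.19-fold) and SPARC at 2.16, ranks 59 and 98. THBS1 at 1.30 (2.49-fold) and TNC at 1.04 (2.15-fold) were just past the threshold, and EFEMP1 at 0.39 (1.32-fold) did not reach it.

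Snail against the empty vector asked the same of the second EMT factor. Here the 8 genes split into 4 that were higher and 4 that did not pass 2-fold. Of the 7 genes that passed the filter, 4 were called higher and 0 lower, beside 1.00% higher and 1.50% lower of 11644 kept genes. FBN1 passed only through the Snail library, and SPARC did not pass. POSTN had a log2 ratio of 3.28 (10.3-fold), FBN1 of 2.81 (23.0-fold), FN1 of 2.62 (6.21-fold) and FSTL1 of 1.97 (3.99-fold), ranks 3, 5, 6 and 19 from the top. At the pseudocount of 1 FPKM these are the genes that also stood highest with Zeb1, a comparison that shares the empty vector library. At 0.1 FPKM SPARC stood above FSTL1 with Zeb1 (4.92 against 2.63). EFEMP1 was at 0.66 (1.58-fold), THBS1 at 0.24 (1.19-fold) and TNC at -0.31, none past the threshold. The median log2 ratio was 1.31 over all 8 genes and 0.12 over all kept genes.

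Zeb1 set directly against Snail uses no control library. All 8 genes passed the filter, SPARC only through the Zeb1 library. Of these, 6 were called higher with Zeb1 and 0 lower, beside 2.34% higher and 6.43% lower of 11732 kept genes. The log2 ratios of Zeb1 over Snail were 2.79 for FN1 (6.91-fold), 2.41 for FBN1 (5.80-fold), 2.13 for SPARC, 1.72 for POSTN (3.32-fold), 1.34 for TNC (2.72-fold) and 1.06 for THBS1 (2.10-fold). FSTL1 at 0.63 (1.55-fold) and EFEMP1 at -0.26 did not reach 2-fold. FN1 had the largest of these ratios at a pseudocount of 1 FPKM, while at 0.1 FPKM that of SPARC was larger (4.69 against 2.79 for FN1). For EFEMP1 the sign changed to positive when ratios were centred on well expressed genes (0.09), rescaled without the abundant RNAs RMRP and RPPH1 (0.09) or corrected for transcript length (0.01), so no direction is given.

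Ovol2 against the empty vector asked what the opposing factor does to matrix genes that epithelial cells already express. Every one of the 6 genes that passed the filter was lower by 2-fold or more, and 0 were higher. In this library 25.1% of the 11812 kept genes were called lower and 6.82% higher, so lower calls were common among all genes. FSTL1 had a log2 ratio of -3.79 (21.3-fold lower in plain FPKM), FN1 of -3.62 (14.0-fold lower) and THBS1 of -3.34 (11.9-fold lower). They ranked 8, 14 and 22 from the bottom of all kept genes. EFEMP1 at -2.81 (7.40-fold lower), POSTN at -2.73 (10.7-fold lower) and TNC at -2.59 (11.3-fold lower) ranked 69, 83 and 109. FBN1 and SPARC were below 1 FPKM in both libraries and did not pass, though FBN1 was 5.96-fold lower in plain FPKM. The median log2 ratio was -2.77 over all 8 genes and -0.51 over all kept genes. THBS1, TNC and EFEMP1, which did not reach 2-fold between Snail and the control, were thus among the genes far lower with Ovol2.

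Scaling and transcript length moved the ratios of all genes in this library, those of the 6 included. RMRP and RPPH1, the RNA parts of RNase MRP and RNase P, held 40.6% of all FPKM in the Ovol2 library and 18.7% to 24.6% in the others. Scaling without these RNAs raised the share of all kept genes called lower from 25.1% to 32.3%. Scaling all libraries to one upper quartile turned the split of all genes from 806 higher and 2965 lower to 2064 higher and 1216 lower, 10.1% of those kept. The median ratio of all kept genes was -0.38 in the shortest of 10 length classes of transcripts and -0.91 in the longest. Classes used the median transcript length of each gene, which put POSTN in the longest class and THBS1 and EFEMP1 in the shortest. Subtracting the median of the same length class left 9.29% of all genes called lower. Under each of these settings all 6 genes were still lower by 2-fold or more, since they lay far from that threshold. With one upper quartile FN1 was at -3.00 and EFEMP1 at -2.15. After the length correction POSTN moved most, from -2.73 to -1.82, with FN1 at -2.93, FSTL1 at -3.24, THBS1 at -2.97, EFEMP1 at -2.44 and TNC at -2.17.

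**Figure D3:**
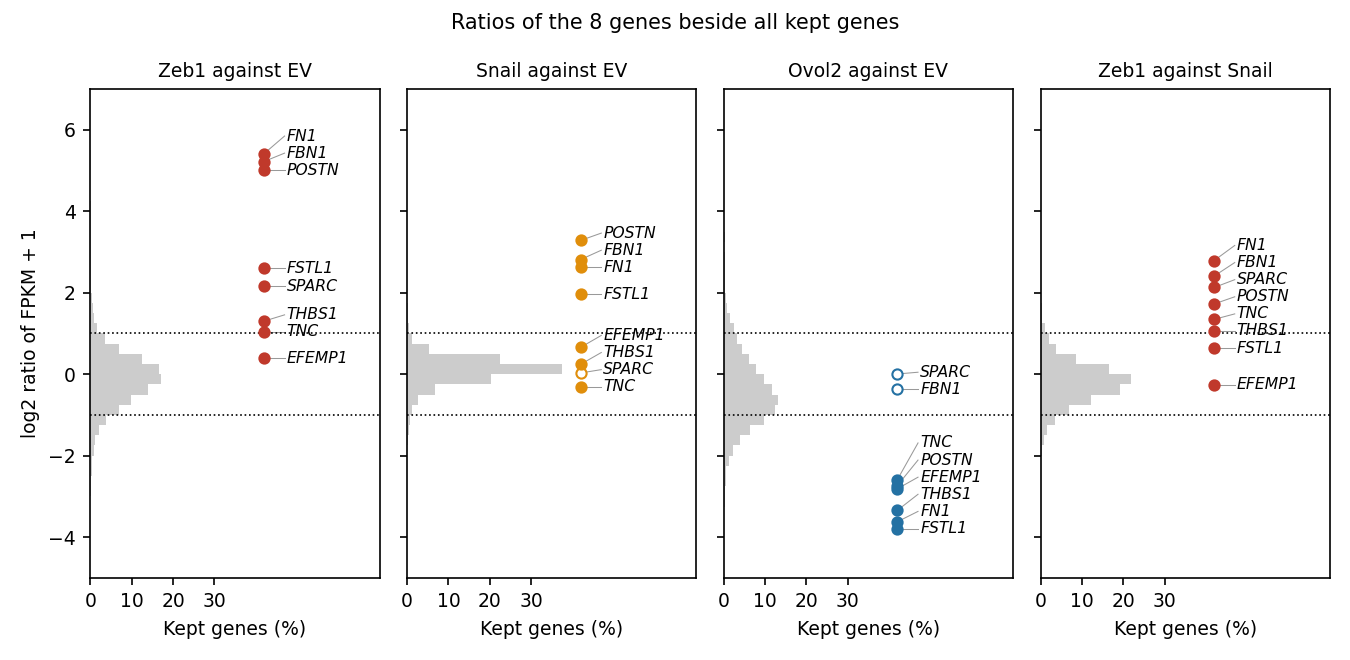
Log2 ratio of FPKM + 1 (vertical axis) for the 8 genes (points) beside the distribution of all kept genes (grey bars, percent of kept genes per 0.25 log2), for 4 comparisons of 1 library with 1 library. Open points did not pass the filter and dotted lines mark 2-fold. The axis leaves out 12 kept genes with Ovol2 and 1 in Zeb1 against Snail. FN1, FBN1 and POSTN lie above 5 with Zeb1, and the 6 filled points with Ovol2 lie below -2.5.

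The profile over the 3 ratios against the empty vector was compared between genes by Euclidean distance, in log2 units, among 8276 genes (8277 for SPARC) that reached 5 FPKM in any library. Because all 3 ratios share the control, a distance describes likeness of these 4 values and no more. The nearest gene to FN1 was POSTN (1.18), and the nearest to POSTN was FN1, followed for both by vimentin (VIM) and GAS1. Nearest to FBN1 were IGFBP3 (0.68), DCN (0.80) and COL3A1 (1.39), of which IGFBP3 binds insulin-like growth factors and the others encode matrix components. FBN1 was below 1 FPKM with EV and Ovol2, so the pseudocount held its Ovol2 ratio at -0.37, though it was 5.96-fold lower in plain FPKM. IGFBP3 was at 18.2 FPKM with EV and 19.1 with Ovol2, and DCN at 11.1 and 6.98. The likeness of FBN1 to these genes thus depends on the pseudocount. Nearest to FSTL1 were ROS1 (0.65), CCDC80 (0.93) and LOX (1.08), and nearest to THBS1 were TNS3 (0.44), TPM2 (0.48) and FAP (0.54). TNC had C1R (0.44), DPYD (0.58) and KCTD12 (0.58) nearest, and EFEMP1 had NAV2 (0.12), FBLN1 (0.18) and FXR1 (0.19). FBLN1 encodes another fibulin and was at 11.6, 16.8, 17.7 and 0.643 FPKM, so it too was lowest with Ovol2, with like levels in the Zeb1 and Snail libraries. SPARC had PTGS1 (0.49), PRSS23 (0.54) and ADAMTS5 (0.54) nearest. Its Snail and Ovol2 ratios in this distance (0.03 and 0.004) rest on a handful of fragments and on the pseudocount. The Zeb1 ratio of SPARC was 2.16 at a pseudocount of 1 FPKM and 4.92 at 0.1 FPKM, so these distances depend on that choice. Among pairs of the 8 genes, TNC and THBS1 were closest (0.97), followed by THBS1 and EFEMP1 (1.13).

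Of 25 other members of the same protein families, most were hardly expressed, and 9, 8 and 6 were kept with Zeb1, Snail and Ovol2. TGFBI, the relative of periostin, was the most abundant at 1999 FPKM with EV, 3909 with Zeb1, 3038 with Snail and 290 with Ovol2 (log2 ratios 0.97, 0.60 and -2.78). With Zeb1 3 were higher and 0 lower, namely the SPARC relatives SMOC1 (3.01) and SPOCK1 (1.87) and the fibulin FBLN5 (1.80). The 3 include SMOC1 and FBLN5, which passed only through the Zeb1 library. With Snail 1 was higher (FBLN5, 1.44, which passed only through the Snail library) and 0 lower, and with Ovol2 0 were higher and 6 lower, among them FBLN1 (-2.93), FBN2 (-2.61) and SPOCK1 (-1.64). The medians of the kept genes were 0.79, 0.58 and -2.12. Among all kept genes 4.52% were higher with Zeb1, 1.00% higher with Snail and 25.1% lower with Ovol2. Family members of SPARC and FBN1 did not all follow them: SPARCL1 stayed at or below 0.0808 FPKM in every library and FBN3 at or below 0.0242, while FBN2 was at 6.02, 7.49, 9.54 and 0.149 FPKM.

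Few microfibril and elastic fibre genes were called with the EMT factors. Of 17 genes, 9 were kept with Zeb1, of which 1 was higher (FBLN5) and 0 lower, and 9 with Snail, of which 2 were higher (MFAP5 at 1.48 and FBLN5) and 0 lower. FBLN5 passed only through the library in which it was high in both comparisons, and over all kept genes 4.52% were higher with Zeb1 and 1.00% with Snail. Of 8 kept with Ovol2, 4 were lower and 0 higher, namely LTBP2 (-2.93), LTBP1 (-2.90), LTBP4 (-2.13) and LOXL1 (-1.40). The LTBP proteins bind fibrillin microfibrils and anchor latent TGF-beta. Elastin (ELN) was at or below 0.0509 FPKM in every library, while FBN1 stood at 50.3 FPKM with Zeb1. The medians were 0.35, 0.41 and -1.15, and 25.1% of all kept genes were lower with Ovol2.

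Other matrix glycoproteins moved in a more mixed way. Of 40 genes, 16 were kept with Zeb1, and 9 were higher and 1 lower. The higher ones included the CCN protein genes WISP1 (4.52, from 0.851 to 41.4 FPKM) and CTGF (2.07, from 33.1 to 142 FPKM), dermatopontin (DPT, 3.46, listed at 0 in the control and at 9.98 FPKM with Zeb1), ABI3BP (3.12) and the peroxidase PXDN (1.63). TINAGL1 was the lower one (-2.80). Among the 16 kept with Zeb1, 4 genes passed only through the Zeb1 library, and all 4 were among the 9 higher. With Snail 2 of 13 were higher (MATN3 at 1.16 and MFGE8 at 1.05) and 1 lower (TINAGL1, -1.12). With Ovol2 9 of 14 were lower, led by PXDN (-3.97), CRIM1 (-3.03) and CTGF (-2.97), and 2 were higher (ECM1 at 1.39 and VWF at 1.19), both of which passed only through the Ovol2 library. The medians were 1.47, 0.60 and -1.34. Shares of all kept genes were 4.52% higher and 8.49% lower with Zeb1, and 1.00% and 1.50% with Snail. With Ovol2 they were 6.82% higher and 25.1% lower.

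Receptors for these proteins followed in part. Integrin alpha-5 (ITGA5), which pairs with beta-1 as the main fibronectin receptor, was at 32.5 FPKM with EV, 139 with Zeb1, 61.8 with Snail and 2.57 with Ovol2 (log2 ratios 2.06, 0.91 and -3.23). ITGAV was at 76.0, 192, 117 and 11.2 FPKM (1.33, 0.62 and -2.66), and ITGB1 at 201, 314, 318 and 38.3 FPKM (0.64, 0.66 and -2.36). The order of the libraries for ITGA5 and ITGAV was thus that of FN1. Syndecan-1 (SDC1), a heparan sulfate proteoglycan of epithelia, went the other way, at 156, 31.3, 117 and 376 FPKM (-2.28, -0.41 and 1.27). Of 18 receptor genes, 4 of 15 kept (2 of the 15 only through the Zeb1 library) were higher and 2 lower with Zeb1, 0 of 13 were called in either direction with Snail, and 2 of 13 were higher and 8 lower with Ovol2. The 2 higher with Ovol2 were SDC1 and the thrombospondin receptor CD36 (2.33), and CD47, another such receptor, stayed between 5.67 and 8.32 FPKM. The medians were 0.53, -0.05 and -1.41. The 2 receptors that passed only through the Zeb1 library were among the 4 higher there. Beside these counts, 4.52% of all kept genes were higher and 8.49% lower with Zeb1. With Ovol2 6.82% were higher and 25.1% lower.

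Among 19 genes for processing, crosslinking and turnover, 17 were kept with Zeb1, and 6 were higher and 1 lower. The protease ADAMTS1 (5.05) and the transglutaminase TGM2 (3.22), which crosslinks fibronectin, led, followed by the gelatinase MMP2 (2.36) and lysyl oxidase (LOX, 1.58). ADAMTS1 passed only through the library of the factor, here and with Snail. With Snail 3 of 17 were higher (TGM2 at 2.21, LOX at 1.61 and ADAMTS1 at 1.20) and 1 lower (MMP3, -1.51). With Ovol2 0 of 16 were higher and 11 lower, led by LOX (-3.77), TLL1 (-2.38) and MMP14 (-1.83), beside 25.1% lower over all kept genes. Upper quartile scaling left 5 of 16 lower, beside 10.1% over all. TGM2 stood at 1.36, 20.9, 9.93 and 0.117 FPKM, so its libraries ranked as those of FN1 did. The medians were 0.37, 0.18 and -1.27, and 4.52% of all kept genes were higher with Zeb1 and 1.00% with Snail.

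Genes of TGF-beta signalling and actin-linked transcription, which act on FN1, CTGF and THBS1 in textbook accounts, were kept in 17 of 18 cases. With Zeb1 4 were higher and 0 lower, namely TGFB1 (1.23), WWTR1 (1.19), TEAD1 (1.18) and TGFB2 (1.08). With Snail 1 was higher (TEAD1, 1.01), and with Ovol2 0 were higher and 11 lower, led by the receptor TGFBR1 (-3.51), MKL1 (-2.22) and SMAD7 (-2.01). The Snail call of TEAD1 was just past the threshold and was lost under centring, every scaling and the length correction. Over all kept genes 4.52% were higher with Zeb1, 1.00% higher with Snail and 25.1% lower with Ovol2. TGFBR1 was at 22.4, 17.5, 39.8 and 1.06 FPKM, so it was lower with Zeb1 than with Snail, unlike FN1. The medians were 0.23, 0.19 and -1.23. Against EV the medians of the 6 lists kept their sign under every scaling and the length correction. Upper quartile scaling, however, left 7 of 18 signalling genes and 5 of 13 receptors called lower with Ovol2, beside 10.1% of all kept genes. It put the Ovol2 medians between -0.69 and -0.86, except for the family members at -1.75, beside 0.06 over all kept genes under the same scaling. Over all kept genes the medians as deposited were -0.09 with Zeb1, 0.12 with Snail and -0.51 with Ovol2.

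**Figure D4:**
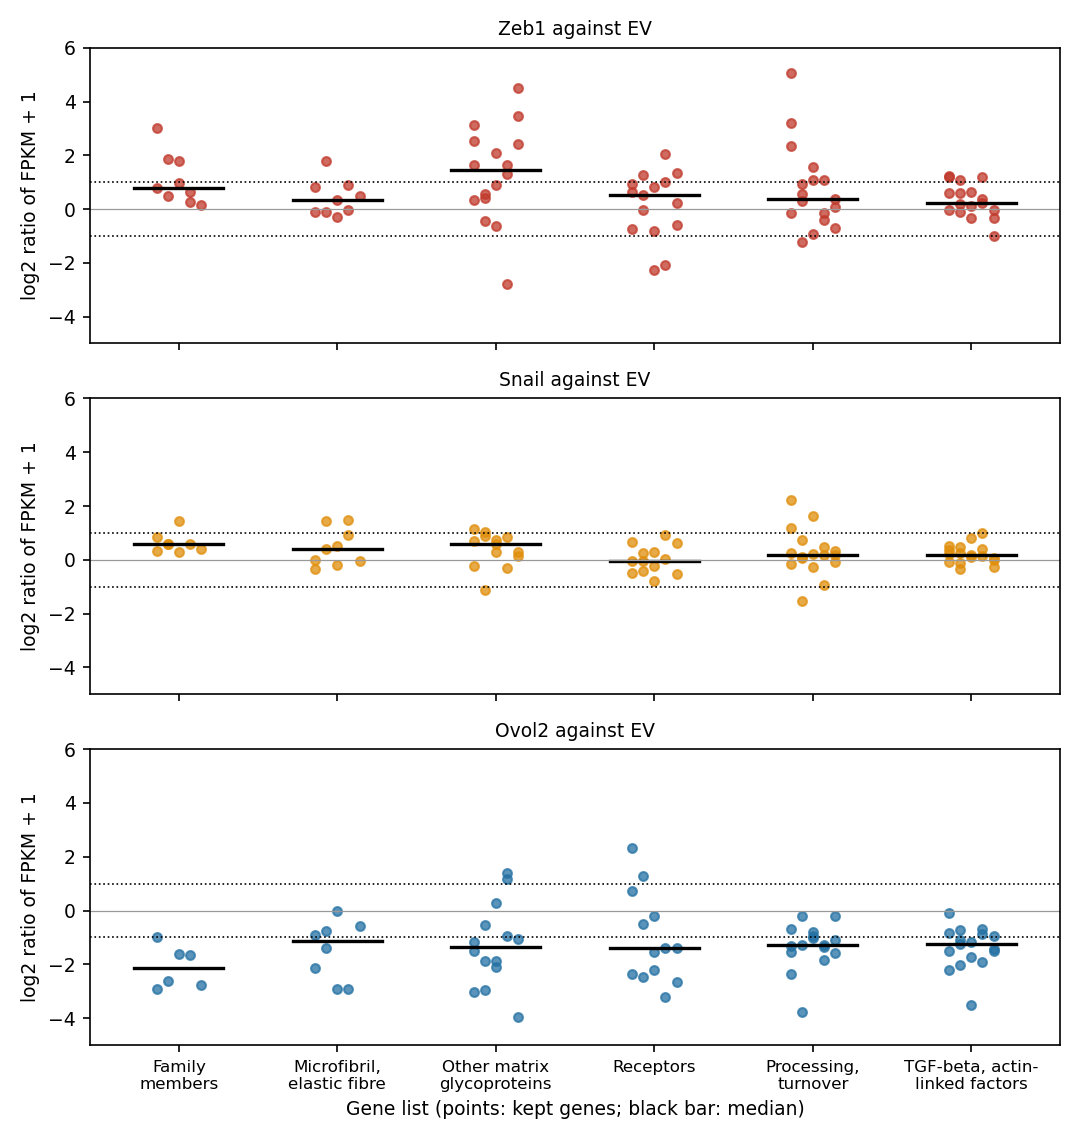
Log2 ratio of FPKM + 1 against the empty vector (vertical axis) for the kept genes of 6 related lists, 1 point per gene, with the median as a black bar and dotted lines at 2-fold. Rows of plots show the Zeb1, Snail and Ovol2 libraries, each with 1 library per group. With values as deposited, all 6 medians lie below -1 with Ovol2, and other matrix glycoproteins have the highest median with Zeb1 (1.47). With no filter on low values that Zeb1 median was 0.27, below the 0.29 of processing and turnover genes.

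Each deposited table also holds a p-value from a regularised comparison of 1 value with 1 value. In the authors' deposited table for Zeb1, the adjusted p was 0.557 for FN1 and 0.983 for POSTN, although their deposited folds were 43.0 and 34.2. The regularised standard deviations in the authors' deposited table were 6935 FPKM for FN1 and 2746 FPKM for POSTN in the Zeb1 library, above the levels themselves. In the authors' deposited table for Snail, FN1 had an adjusted p of 0.0658, while TNC, at a deposited fold of -1.27, had 9.10e-09. In the authors' deposited table for Ovol2, SPARC had an adjusted p of 2.22e-04 for a fold of 1.14, with about 2 fragments in each library. The order of these p-values is thus unlike that of the fold differences, and they do not measure the spread between cultures.

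Counting without strand could mix overlapping genes. The TruSeq RNA v2 protocol does not mark strand, and whether counting used one was not stated in any source used. Of genes that overlap an exon of the 8 on the opposite strand in GENCODE release 29, 2 are in the deposited tables: FSIP1 at THBS1 and DEC1 at TNC. FSIP1 was at 0.110 to 0.432 FPKM and DEC1 at 0 to 0.0479 FPKM, far below their partners in every library.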

How the data were processed

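RNA from 4 libraries of sorted MCF10A cells, 1 per group, was sequenced after TruSeq RNA v2 preparation. The authors deposited 3 tables of 25360 rows and 25317 symbols, each pairing the empty vector with 1 factor. The submitters' processing notes list hg19 as build and, as tools, Cufflinks, Cuffdiff and TopHat. From these tools and the values, the authors' expression columns were read as FPKM, a unit that no header names. Versions, annotation and strand setting are not given in the sources used here. Per the file headers, the tables also hold the authors' signed fold, a regularised standard deviation and a Benjamini-Hochberg adjusted p-value, with 1 value per side and 8 degrees of freedom. These were used only as a named alternative.

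The control column was identical between the 3 tables. Rows that repeat a symbol (43) were summed. Log2 ratios used a pseudocount of 1 FPKM, which understates the difference of low genes, a filter of 1 FPKM in either library and a call at 2-fold. The steps were tested on simulated data. Members and gene lists were chosen with earlier results of these data known. Related genes named were, per list, up to 6 with the largest ratio in any comparison with the empty vector, plus the 3 nearest genes to each member and the delivered factors. Further genes (SPARCL1, FBN3, ELN, CD47, TINAGL1, MATN3, MFGE8, ECM1, VWF, MMP3, TGFB1, TGFB2 and WWTR1) were named after their values were seen. CTSL1 was found as CTSL. Depth was estimated from 2334 genes with a single GENCODE release 29 transcript of 800 bases or more. Transcript lengths were found for 93.1% of symbols. Promoters came from RefSeq (GRCh38.p14) and no coordinate was converted. Alternatives were another pseudocount (0.1 FPKM), filter (none, 5 FPKM), call (4-fold, the deposited p) and 4 scalings or corrections. Python 3.11.15, pandas 2.3.3 and numpy 2.4.6 were used.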

Additional observations from a re-analysis of the deposited data

How the results depend on the processing

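The call of each member was recomputed with a pseudocount of 0.1 FPKM, with no filter and a filter of 5 FPKM, with ratios centred on 4468 genes at 5 FPKM or more in every library, with upper quartile scaling, with a scaling that leaves out RMRP and RPPH1, and after correction for transcript length. Centring moved ratios by the medians of those genes, -0.26 for Zeb1, 0.11 for Snail and -0.22 for Ovol2 against the empty vector and -0.35 for Zeb1 against Snail. Of 201 recomputed member ratios, 198 kept their sign and their side of 2-fold. The other 3 were EFEMP1 in Zeb1 against Snail, given in the report. A change of filter leaves each ratio as it was, so for those settings, which the 201 include, agreement was fixed in advance. With 4-fold as the call, 3 members instead of 6 were higher in Zeb1 against Snail, 5 instead of 7 with Zeb1 and 3 instead of 4 with Snail against the empty vector, and 6 stayed lower with Ovol2. At 4-fold, 0.50%, 0.95% and 0.15% of all kept genes were higher in the same order, and 3.07% were lower with Ovol2. With the deposited adjusted p-value as the call, 1 member was lower with Snail (TNC) and 1 higher with Ovol2 (SPARC), against 0 in each case by fold. This call also gave 5 higher with Zeb1, 6 higher with Snail and 7 lower with Ovol2. It is a common call, met by 6598 of 25317 symbols in the lower direction with Snail and 9403 in the higher direction with Ovol2. For the other counts, 10044 symbols were higher with Zeb1, 13934 higher with Snail and 12484 lower with Ovol2. TNC was nearest to the threshold with Zeb1, between 1.04 and 1.34 over the settings. SPARC was at 4.92 with Zeb1 at the pseudocount of 0.1 FPKM and at 2.16 to 2.47 under the other settings that kept it. Among all genes the number higher or lower with Zeb1 went from 539 and 1012 to 974 and 562 when centred, to 1017 and 605 when RMRP and RPPH1 were left out, and to 885 and 1541 with the smaller pseudocount. For Zeb1 against Snail centring turned 275 higher and 754 lower into 632 and 246. Within these 4 libraries the spread between cultures could not be measured. No paired analysis was possible because each group held 1 library and no test was run.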
